A study of Drosophila melanogaster with 2 samples.

Results

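Of the 2644 peaks at which GFP-tagged Corto was mapped reproducibly in Drosophila melanogaster embryos, 212 had their summit 1 to 500 bp downstream of the nearest transcription start site (TSS) of a protein-coding gene. These downstream promoter summits were chosen by position alone, as summits in the optimal peak set whose nearest protein-coding TSS, over all annotated transcripts, lay within 500 bp on their upstream side along the strand of the gene. They made up 8.02% of the set (95% Wilson interval 7.04 to 9.12, counting error only), beside 943 summits within 500 bp upstream of the nearest TSS, 1 summit on a TSS and 1488 summits farther away. The flies stably carried a transgene for Corto fused at its C terminus to GFP, and ChIP-seq, the sequencing of DNA precipitated with a bound protein, was done with an anti-GFP antibody on sonicated chromatin. Mixed-sex whole embryos, 0 to 24 h old, formed 1 group with 2 biological replicates, so the design holds no comparison between conditions, and every value is an average over all embryonic cell types and stages in that span. The files hold no read counts, only peaks and their signals, so the depth is unknown, and signals are in the deposited scale, of a unit that no source used here gives. The optimal set was derived by the authors by the irreproducible discovery rate (IDR) of the replicate lists, a measure of how reproducibly peaks are ranked.

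Corto is a chromodomain protein whose gene belongs to the Enhancers of Trithorax and Polycomb, genes whose mutations affect both the silencing and the maintained activity of homeotic genes. The region just downstream of a TSS is where RNA polymerase II pauses in many fly genes, and where the nucleosome after the promoter usually lies. It holds the 5′ untranslated region (UTR) and often the start of the first intron. Many fly genes have several TSSs, so a position downstream of one TSS can lie upstream of the next.

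The DNA at the strongest of these summits is shown first, as a description of the letters there. Each window holds 29 bases centred on the summit, on the strand of the gene, 5′ to 3′, read from NCBI's sequence of the dm6 assembly. They are the 10 strongest in order of signal except CG8320 and GstE13, whose sequences are not shown. Capitals mark runs of 5 or more bases that are only A or T.
PNPase: ctcaagaaacgtacagggcTTTTATTgta
CG11309: ttatgaaatcaaaggctgatgATTTAAgt
CG8360: ATTTAggtatgTATTTggAAATATgtttc
ph-p: TATTTgaaacATTAATAAAcTTAAAActt
Elp5: tacgttcacatgatgatagaaagtactga
tank: attcagcacaaagttcaatgATTATTAgg
mRpL23: gtggAATATTTTATAgttacagcgTAATA
Eip75B: ctcacttactagtgAAAAAcatgATAATA
The windows lie at chr3R:31404650-31404678 (minus strand), chr3L:21304557-21304585 (minus), chr2L:8213018-8213046 (plus), chrX:2137961-2137989 (minus), chr3L:2257501-2257529 (plus), chr2L:4837897-4837925 (minus), chr3L:2373591-2373619 (minus) and chr3L:17999796-17999824 (minus), in the order printed. The G + C content of the 8 windows printed ran from 13.8% at ph-p to 37.9% at PNPase, and the window at Elp5 was without such a run. Runs of this kind were not counted over all summits or at other positions, so the windows do not show whether they are frequent.

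Over all 212 summits the G + C content of the central 101 bp averaged 37.0% (SD 8.44 over summits). It was 34.1% at the upstream promoter summits (SD 9.78) and 43.5% in windows of the same length centred 106 bp downstream of all 19607 protein-coding TSSs (SD 9.10). Downstream summits thus lay in DNA poorer in G and C than the usual position at their median offset. At the positions mirrored to the other side of the same TSSs the mean was 40.3% (SD 10.6), also below that of all TSSs. Part of the difference was thus seen on the other side of these TSSs as well, where windows overlap at small offsets. In the profile along the gene strand, 25 bp windows around downstream summits held 43.8% G + C (SEM 0.944) at 100 bp before the summit and 35.5% (SEM 1.01) at the summit. The lowest value was 34.6% (SEM 0.903) at 50 bp after it. Around upstream summits the lowest value was 32.4% (SEM 0.454) at 25 bp before the summit, and G + C then rose towards the gene.

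**Figure D1:**
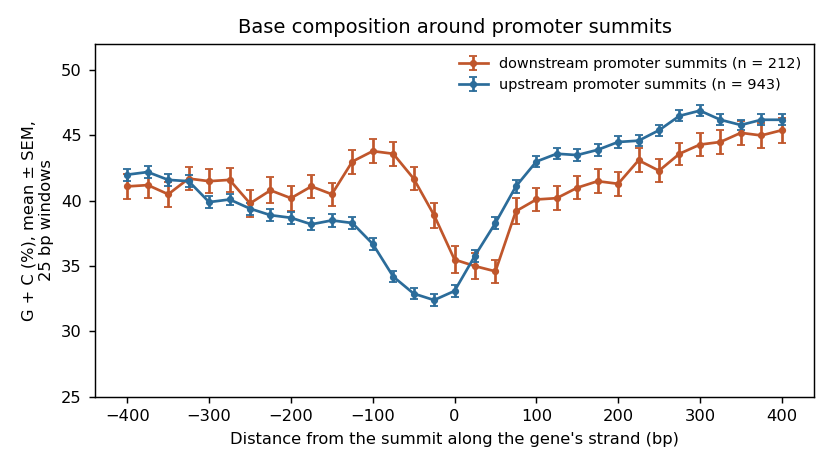
Mean G + C content (%) in 25 bp windows at distances from -400 to 400 bp of the summit along the gene strand, with bars for the SEM over summits, for 212 downstream and 943 upstream promoter summits. The downstream profile has a local maximum of 43.8% at -100 bp, dips to 34.6% after the summit and reaches 45.4% at 400 bp, while the upstream profile dips to 32.4% just before the summit.

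Downstream summits were the smaller class of promoter summits. Of the 1155 promoter summits off the TSS, 18.4% lay downstream (95% Wilson interval 16.2 to 20.7), although 55.0% of all bases within 500 bp of a protein-coding TSS lie downstream of their nearest one. The strongest 2644 entries of each replicate list, classed in the same way, gave 267 of 1305 (20.5%) in replicate 1 and 236 of 1096 (21.5%) in replicate 2. Below the optimal set, the pooled list of both replicates held 2105 downstream summits among 5896 near a TSS, or 35.7% (34.5 to 36.9). The share went from 19.5% in the first 3000 entries of the pooled list, through 29.1% and 31.5% in the next steps of that size, to 42.8% and 40.2% in the last steps. At every depth of the list the share stayed below that of the bases. Coding sequence outside any annotated 5′ UTR held 1.57% of the downstream summits of the first step and 19.1% of those of the last.

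**Figure D2:**
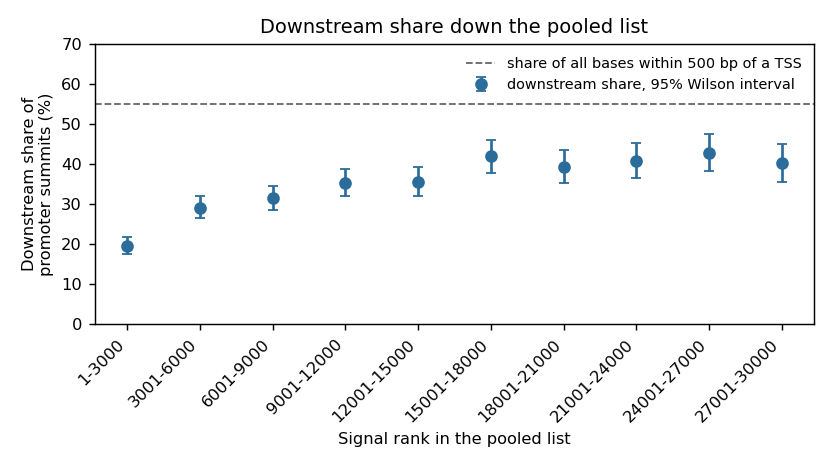
Share (%) of promoter summits that lay downstream of the nearest TSS, in steps of 3000 entries of the pooled list ranked by signal, with 95% Wilson intervals that cover counting error only. The dashed line marks the 55.0% of bases within 500 bp of a TSS that lie downstream; the share goes from 19.5% in the first step to 40.2% in the last and stays under the line.

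Most positions lay within 200 bp of the TSS. Offsets had a median of 106 bp and quartiles of 54.0 and 278 bp. There were 51 summits at 1 to 50 bp, 51 at 51 to 100 bp, 46 at 101 to 200 bp, 17 at 201 to 300 bp, 32 at 301 to 400 bp and 15 at 401 to 500 bp. The nearest were at Mnt, which encodes a Max-binding transcriptional repressor (1 bp, signal 89.5), and puc, the phosphatase that damps Jun kinase signalling (3 bp, 221). Next came RpS23, a protein of the small ribosomal subunit (4 bp, 107), with RpL7 (194) and PGAP5 (89.6) also at 4 bp. The replicate summits were at -6 bp for Mnt (replicate 2 only), -1 and -36 bp for puc, and -7 and 10 bp for RpS23. They were at 60 and 3 bp for RpL7 and at 1 and -21 bp for PGAP5. Just inside the far limit were Septin2, a septin of the cytokinesis ring (475 bp, 137, the same offset as CG6163 with 83.0), CG8128 (479 bp, 109) and 14-3-3zeta, a phosphoserine-binding adaptor (498 bp, 92.7). Just outside it were aru (504 bp, 219), Syp (505 bp, 157) and Fbl6 (506 bp, 166).

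Many of these summits also lay upstream of a second TSS. Of the 212, 86 (40.6%, interval 34.2 to 47.3) were also within 500 bp upstream of another protein-coding TSS on either strand. Such a TSS on the same strand lies ahead, so that the summit is between 2 start sites. If it is on the opposite strand, it lies behind the summit, past the nearest TSS. At 70 summits (33.0%) the gene itself had such a TSS, which lay ahead. The other TSS belonged to the same gene only at 29 summits, to other genes only at 16 and to both at 41, and at 56 summits such a TSS was on the opposite strand. Placing the members' offsets at all protein-coding TSSs put 20.9% of positions upstream of another TSS. The value was 23.6% at the TSSs of genes with several TSSs and 30.2% at the 210 TSSs nearest to the members themselves. The median distance from the summit to the nearest such TSS was 141 bp (quartiles 99.2 and 240). Upstream promoter summits lay a median of 149 bp before their nearest TSS (quartiles 90.0 and 242).

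Summits also upstream of another TSS lay nearer to their nearest TSS. Their median offset was 73.0 bp against 172 bp for the other 126. The share also upstream of another TSS was 54.9% at 1 to 50 bp, 58.8% at 51 to 100 bp and 45.7% at 101 to 200 bp. It was 29.4% at 201 to 300 bp and 6.25% at 301 to 400 bp. None of the 15 summits at 401 to 500 bp was (0%, 95% Wilson upper bound 20.4%). A summit far from the nearest TSS cannot lie close to another, so some of this decline follows from the definition.

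**Figure D3:**
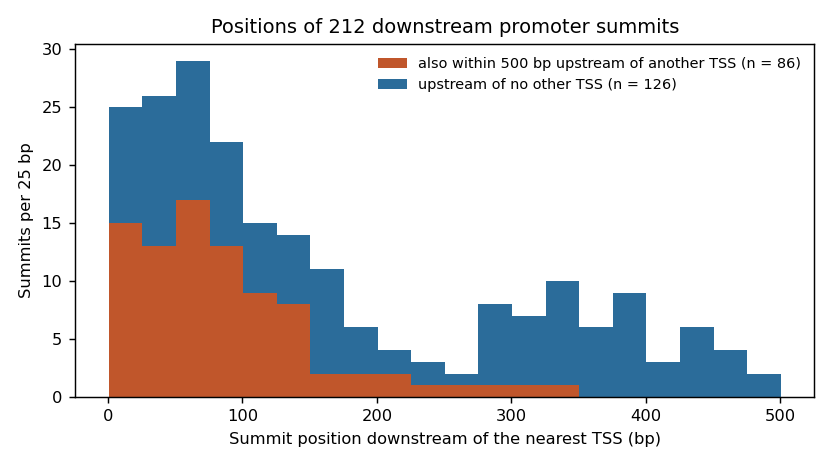
Number of downstream promoter summits in 25 bp bins of the distance (bp) from the nearest TSS, stacked, with the 86 that also lay within 500 bp upstream of another TSS in orange and the 126 that did not in blue. The orange summits lie mainly below 200 bp (median 73.0 bp), and the blue ones reach to 498 bp (median 172 bp).

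By signal, the strongest downstream summits were mostly those that also lay upstream of another TSS. The median signal was 104 for all 212 (quartiles 89.7 and 134), and 118 for the 943 upstream summits (95.3 and 169), a log2 ratio of medians of -0.18. Summits also upstream of another TSS had a median of 117 (log2 ratio to upstream summits -0.01), and the others had 100 (-0.23). Of the strongest 53 downstream summits 60.4% were also upstream of another TSS, against 35.8% of the weakest 53. The difference was 24.5 percentage points (95% Newcombe interval 5.51 to 41.2, counting error only).

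The strongest summit lay at PNPase, which encodes a mitochondrial RNA-degrading polynucleotide phosphorylase, 76 bp downstream of a TSS and 96 bp upstream of another TSS of the same gene. Its signal was 668, with 328 in replicate 1 and 349 in replicate 2, and it ranked 7 of all 2644 peaks. At CG11309 a summit in an intron had a signal of 485 (229 and 255 in replicates 1 and 2), 87 bp past a TSS and 104 bp before the next. CG8360 had 456 (260 and 199) at 73 bp, 85 bp before another TSS of the gene. Each of these had a summit in both replicate lists, and the DNA at all 3 is among the windows printed above. The summit 77 bp into CG8320 (2R 15992485, signal 436, replicates 224 and 196) lay 110 bp upstream of a TSS of Pex11ab, which encodes a protein of peroxisome division. This summit was upstream of a TSS on the opposite strand and of no other TSS of CG8320. GstE13, a glutathione S-transferase gene, had 311 (175 and 134) at 95 bp, 104 bp before its own next TSS. Elp5, for a subunit of the Elongator complex that modifies transfer RNA, had 308 (141 and 170) at 59 bp. It lay 92 bp upstream of a TSS of CG1275 and had a further TSS of its own gene ahead. Except at CG8320, each of these summits lay between 2 TSSs of its nearest gene.

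The same arrangement was seen at mRpL23, for a protein of the large mitochondrial ribosomal subunit, with a signal of 294 (135 and 156), 73 bp past a TSS and 104 bp before another. CG8892 (275, replicates 124 and 149) lay 70 bp past its TSS, with a further TSS of the gene ahead, and 97 bp upstream of a TSS of CG34126. CG9399 (265, replicates 150 and 119) lay 29 bp past a TSS and 196 bp before its own next. The arrangement at tank (297, replicates 165 and 146) differed. Its summit was 88 bp in and 436 bp upstream of a TSS of CG12194, with no further TSS of tank ahead within 500 bp. It lay upstream of a TSS on the opposite strand. In all, 10 of the 15 strongest summits also lay upstream of another TSS.

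The remaining 5 of the 15 were not within 500 bp upstream of any other TSS. The strongest was at ph-p, the proximal polyhomeotic gene, which encodes a subunit of Polycomb repressive complex 1. It lay 396 bp into the 5′ UTR, with a signal of 341 (149 in replicate 1, 196 in replicate 2), and another optimal summit with a signal of 616 lay 656 bp from it. The replicates placed it at 397 and 395 bp, so its side of the TSS was the same in both. Eip75B, which encodes an ecdysone-induced nuclear receptor, had 279 (136 and 154) at 11 bp. Its replicate summits were at -48 and -9 bp, upstream of the TSS. For puc the signal was 221 (105 and 118) at 3 bp, and the replicate summits were again upstream, at -1 and -36 bp. For these genes the downstream side came from the summit called in the optimal set and was not that of either replicate alone.

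Deeper summits upstream of no other TSS were found in first introns. At egh, for a mannosyltransferase of glycosphingolipid synthesis, the signal was 225 (127 and 103) at 398 bp. At rudhira, the homologue of human BCAS3, it was 221 (102 and 114) at 326 bp, with replicate summits at 327 and 326 bp. Both genes had a further downstream summit at a different TSS, with signals of 94.3 at egh and 92.4 at rudhira. The intronic window of 101 bases centred on the stronger rudhira summit, chrX:11818613-11818713 on the plus strand of dm6, is printed to show how short A/T runs, in capitals, are spread around a summit inside an intron. Its G + C content was 35.6%.
rudhira: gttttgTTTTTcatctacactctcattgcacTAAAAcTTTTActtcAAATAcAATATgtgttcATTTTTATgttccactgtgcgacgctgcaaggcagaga

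**Figure D4:**
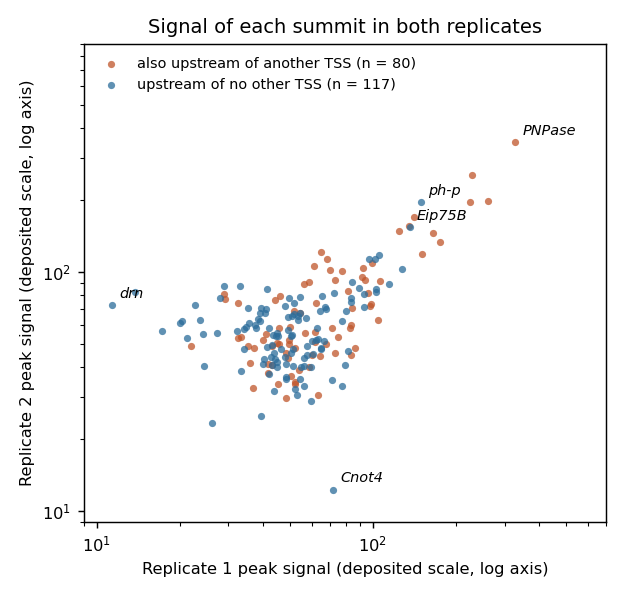
Deposited peak signal of the downstream summits with a summit within 200 bp in both replicate lists, replicate 1 against replicate 2 on log axes. Colours show whether the summit also lay within 500 bp upstream of another TSS. PNPase is highest in both (328 and 349), while drn (11.4 and 73.0) and Cnot4 (71.9 and 12.3) are low in a single list. Both axes are in the deposited scale, which may differ between lists.

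The replicates placed most of these summits at the same sites, with less accord on the side than for upstream summits. A summit of both replicates lay within 200 bp for 197 of 212 (92.9%) downstream summits and for 903 of 943 (95.8%) upstream ones. The remaining members had one in replicate 1 only (8) or replicate 2 only (7). Where both replicates had a summit, both lay on the downstream side for 173 of 197 (87.8%, interval 82.5 to 91.7). Both lay upstream for 96.0% of the upstream summits, a difference of -8.20 points (-13.6 to -4.06). The side was shared by both for 69.6% of members at 1 to 50 bp and for 93.4% at 51 to 500 bp, and the replicate summits were a median of 39.0 bp apart. Both replicates ranked 101 members (47.6%) among their own strongest 2644, against 56.8% of upstream summits (difference -9.20 points, -16.5 to -1.78). The optimal set was derived from these replicates, so such matches are partly built in. In 8 of the 197 a replicate ranked the site past 10000. Examples chosen after their values were seen were drn (signal 95.2, replicates 11.4 and 73.0) and Cnot4, for a subunit of the deadenylase complex (84.5, replicates 71.9 and 12.3).

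Most downstream summits lay in 5′ UTRs and introns, and few in coding sequence. By the annotation, 148 (69.8%, interval 63.3 to 75.6) were in a 5′ UTR, 60 (28.3%, 22.7 to 34.7) in an intron, 3 (1.42%, 0.482 to 4.08) in coding sequence and 1 in a non-coding exon. None was intergenic or in a 3′ UTR, where the upper Wilson bound is 1.78%. A position in the 5′ UTR of any transcript was classed there, even where another transcript has coding sequence. The summit at fabp, classed as 5′ UTR, lay just past the start codon of a transcript from its nearest TSS. The members' offsets placed at all protein-coding TSSs gave 56.3% in 5′ UTRs, 13.1% in introns and 29.5% in coding sequence. At the members' own TSSs they gave 77.3%, 18.0% and 4.11%. The coding interval ended just below the value at the same TSSs, and the intron interval lay above both reference values. The 5′ UTR interval lay below the value at the members' own TSSs and above that at all TSSs.

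Intronic summits were the deeper ones. Their median offset was 318 bp (quartiles 148 and 389) against 73.0 bp (39.2 and 138) in 5′ UTRs, and introns held 68.8% of summits at 301 to 400 bp and 73.3% at 401 to 500 bp. The intron was the first one of a transcript from the nearest TSS for 59 of 60. Of the 148 summits in 5′ UTRs, 60 were intronic in another transcript of the gene, and 184 of all 212 (86.8%) lay before the start codon. Summits also upstream of another TSS were in a 5′ UTR in 81.4% of cases and the others in 61.9%, a difference of 19.5 points (7.07 to 30.6). Signals did not separate the classes, with medians of 103 in 5′ UTRs and 105 in introns.

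**Figure D5:**
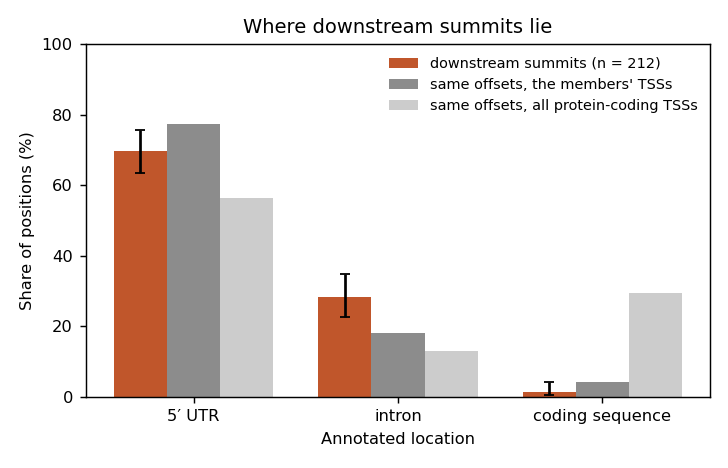
Share (%) of the 212 downstream summits in 5′ UTRs, introns and coding sequence, with 95% Wilson intervals, beside the shares obtained by placing the same offsets at the members' own TSSs and at all protein-coding TSSs. Introns hold 28.3% of the summits against 18.0% and 13.1%, and coding sequence 1.42% against 4.11% and 29.5%. A position in the 5′ UTR of any transcript counts as 5′ UTR.

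The 3 summits in coding sequence and in no annotated 5′ UTR were at lawc, CG5986 and B52. At lawc, a gene of the Trithorax group, the signal was 163 (89.0 in replicate 1, 85.5 in replicate 2) at 160 bp. At CG5986 it was 119 (54.7 and 67.7) at 43 bp, 76 bp upstream of a TSS of Rox8, for an RNA-binding protein, on the opposite strand. At B52, for an SR splicing factor, it was 87.7 (50.7 and 45.9) at 163 bp. All 3 had a summit in both replicate lists within 200 bp.

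Short sequence elements were counted on both strands in the 201 bp around each summit, as a description of the letters present. GAGAG, the core bound by GAGA factor, was in 67 windows (31.6%, 25.7 to 38.1), in 33.1% of upstream summits and in 21.3% of windows 106 bp downstream of all TSSs. Downstream summits thus exceeded all TSSs by 10.3 points (4.38 to 16.9) and differed from upstream summits by -1.48 (-8.12 to 5.68). TATAAA, the TATA box letters, were in 28.8%, against 17.5% of all TSS windows (difference 11.3, 5.61 to 17.8) and 40.4% of upstream summits (-11.6, -18.1 to -4.50). CACACA was in 24.1%, against 14.5% of upstream summits (difference 9.53, 3.75 to 16.1) and 17.2% of all TSS windows. At the positions mirrored to the other side of the TSS, whose windows overlap those of the summits where the offset is small, GAGAG was in 27.8%, TATAAA in 31.1% and CACACA in 18.9%. GAGAG and TATAAA were thus above the share of all TSS windows at the mirrored positions as well. G + C content differed between these sets in the values given above, and its part in the A/T-rich words was not tested. The windows at all TSSs had 1 fixed offset, whereas the members' offsets ran from 1 to 498 bp. Windows of members at small offsets include the TSS and the bases before it, which the windows at all TSSs leave out. The part of this in the differences from all TSS windows, for these and the other elements, was not tested.

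The other promoter elements had these shares. GCCAT, the core bound by the Polycomb recruiter Pho, was in 28.3% of windows, 24.2% of upstream summits and 32.5% of all TSS windows. TCAGT, the initiator core, was in 31.1%, 33.7% and 32.7% of these sets, and CGATA, the core bound by BEAF-32, in 30.7%, 33.0% and 26.5%. The pause button, 8 words of 7 letters found downstream of paused promoters, was in 11.8%, 7.10% and 16.3%, a difference from upstream summits of 4.69 points (0.586 to 9.93) and from all TSS windows of -4.52 (-8.23 to 0.544). TATCGATA, the DNA replication-related element, which contains CGATA, was in 3.30%, 5.51% and 1.13%. GGTCACAC, the core of Motif 1, was in 1.89%, 1.91% and 2.45%. CAGGTAG, bound by the early activator Zelda, was in 1.42%, 0.530% and 1.12%.

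The summits also upstream of another TSS and those upstream of none differed in 3 of the 11 elements. For these the interval of the difference did not hold 0, and for the other 8 it did. GAGAG was in 18.6% of the summits also upstream of another TSS and 40.5% of the rest, a difference of -21.9 points (-32.9 to -9.34). CACACA was in 14.0% and 31.0% (-17.0, -27.3 to -5.44), and CAGCTG, an E-box, in 20.9% and 7.94% (13.0, 3.54 to 23.4). CAGCTG was in 13.2% of all downstream windows, 10.8% of upstream ones and 10.9% of all TSS windows. Among upstream summits, GAGAG was in 17.0% of those near TSSs of several genes and in 39.7% of those near a single gene, and CACACA in 6.52% and 17.8%. The split of upstream summits is by genes and not by start sites, so it is not the same split as that of the downstream ones.

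Examples of the GAGAG letters at summits upstream of no other TSS are given as 29-base windows around the match, on the gene strand of dm6. GAGAG or its reverse complement CTCTC is in capitals. They are sites from the genes named by signal, by distance, by coding position or by their number of summits.
Eip75B: tctatttaaaatCTCTCacttactagtga
rudhira: ttttcatctacaCTCTCattgcactaaaa
lawc: aGAGAGcgcatgCTCTCcgccacacacac
Tlk: ttagccgactggCTCTCagtgtcgaactt
Septin2: tagctcgatgcaGAGAGaatgaaataaaa
They lie at chr3L:17999810-17999838 (minus strand), chrX:11818620-11818648 (plus), chrX:8409955-8409983 (minus), chrX:3776300-3776328 (plus) and chr3R:20587876-20587904 (minus). The lawc window holds the element in both orientations and an AC repeat next to them. A match says only that the letters are present.

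The 212 summits had 205 different nearest genes, or 1.47% of the 13945 protein-coding genes, and 1381 genes (9.90%) had any summit within 500 bp of a TSS. Of the 205, 29 (14.1%) were also the nearest gene of an upstream summit. Genes with several TSSs were frequent, at 79.5% of the 205, 53.4% of the genes nearest to upstream summits and 26.5% of all genes; the first exceeded the second by 26.1 points (19.3 to 32.1). Gene lengths had medians of 4930, 5112 and 2166 bp in the same order. A gene with more start sites offers more positions to fall downstream of, and the part of that in the share was not tested.

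Among genes of the Polycomb group, whose products maintain silencing, 6 of 29 (20.7%, 9.85 to 38.4) had a downstream summit, and 10 had any promoter summit. These shares stand above the 1.47% and 9.90% of all genes, on few genes. After ph-p in the optimal set, grh, for the Grainyhead transcription factor, had a signal of 133 (replicates 26.2 and 23.4) at 278 bp. The replicates ranked this site only 7285 and 9797, with summits 77 and 87 bp from it. In both replicate lists its signal was below those of E(z), Kdm2 and Dsp1. E(z), the histone H3 lysine methyltransferase of Polycomb repressive complex 2, had 122 (73.2 and 46.1) at 111 bp, 127 bp upstream of a TSS of Cnep1r2. Within each list, ph-p was the strongest of the group. The others were Kdm2, a histone demethylase gene (104, replicates 45.2 and 53.9, at 140 bp), and Dsp1, for an HMG-box protein (91.6, replicates 63.2 and 30.5, at 56 bp). The last was lolal, for a BTB-domain protein (81.5 at 257 bp, with 19.1 in replicate 1 and no summit within 200 bp in replicate 2). Of the Trithorax group, whose products keep genes active, 2 of 34 (5.88%, 1.63 to 19.1) had one and 13 had any promoter summit. Beside lawc this was skd, for Mediator subunit 13 (132, replicates 41.5 and 84.8, at 98 bp), where the replicate 1 summit was at -8 bp.

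Genes of the ecdysone response had downstream summits in 4 of 27 cases (14.8%, 5.92 to 32.5), with 13 having any promoter summit, beside 1.47% and 9.90% of all genes. After Eip75B came Hr78, for a nuclear receptor (132, replicates 83.1 and 44.8, at 31 bp), and MsrA, for methionine sulfoxide reductase (113, replicates 35.4 and 70.7, at 90 bp). Eip63F-1, for a calcium-binding protein, had 96.2 (42.1 and 58.5) at 429 bp. In the signalling list, 6 of 49 (12.2%, 5.73 to 24.2) had one and 11 any promoter summit, against the same 1.47% and 9.90%. After puc, Egfr, the epidermal growth factor receptor gene, had 136 (65.7 and 79.6) at 116 bp, and tkv, for a type I receptor of the BMP ligand Dpp, had 123 (65.1 and 48.3) at 9 bp. Both receptor genes had a summit in each replicate list. At pan, for the TCF factor of Wnt signalling, the signal was 99.0 (29.1 and 77.5) at 116 bp, and the replicate 1 summit was at -84 bp. At bsk, for the Jun kinase itself, it was 89.9 (32.4 and 52.8) at 340 bp. The Jun kinase gene and that of its phosphatase, puc, were thus both among the 205 nearest genes.

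Ribosomal protein, stress and paused genes had downstream summits in shares whose intervals held that of all genes. Of 93 cytoplasmic ribosomal protein genes 2 (2.15%, 0.592 to 7.51) had a downstream summit, and 19 had any promoter summit. They were RpL7 (194, replicates 91.8 and 104, at 4 bp, 34 bp upstream of a TSS of Ripalpha) and RpS23 (107, replicates 60.1 and 44.9, at 4 bp). Both were within a few bases of the TSS in the optimal set. The replicate 1 summit was at 60 bp for RpL7 and at -7 bp for RpS23. Of 73 mitochondrial ribosomal protein genes mRpL23 alone had one (1.37%, 0.242 to 7.36), and 10 had any. Of 25 heat shock genes 1 had one (4.00%, 0.710 to 19.5) and 11 any, namely DnaJ-1, for an Hsp40 chaperone (121, replicates 79.2 and 41.0, at 15 bp, with the replicate 2 summit at -64 bp). Of 26 genes known for paused RNA polymerase 0 had one, which allows a share of up to 11.5%, and 6 had any promoter summit. For the last 4 lists the shares lay near the 1.47% of all genes within their intervals. The counts with any promoter summit stand beside 9.90% of all genes.

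Each of 7 genes was nearest to 2 downstream summits, and they were CLIP-190, CrebB, Myo61F, Tlk, egh, mthl3 and rudhira. At Tlk, for the Tousled-like kinase, the summits were 299 bp and 292 bp into the 5′ UTR behind separate TSSs, with signals of 157 (replicates 103 and 84.8) and 121 (57.2 and 64.1). At CLIP-190, for a microtubule-binding protein, they were 203 bp apart behind the same TSS, with signals of 139 and 82.5. In all, 26 members had another optimal summit within 1000 bp. By chromosome arm, downstream summits made up 22.8% of promoter summits off the TSS on X, 17.8% on 2L, 16.7% on 2R, 17.2% on 3L and 17.8% on 3R, with overlapping intervals. On the small chromosome 4 they were 3 of 5, at pan, mav and Hcf.

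Most peaks, 2297 of 2644, had the full width of 400 bp with the summit at the middle, so their summit is the centre of a fixed window. Of the downstream summits 17 (8.02%) were in narrower peaks, against 13.4% of the upstream ones (difference -5.34 points, -9.10 to -0.457). These 17 had a median signal of 294 (range 105 to 668), and 10 of them were also upstream of another TSS.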

How the data were processed

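ChIP-seq peak lists of Corto-GFP embryos, 2 biological replicates per the labels, were used on dm6. The notes deposited beside the lists say that replicate lists and the pooled list were made from alignments with a control, and each holds 30000 entries. The optimal set came from them by the irreproducible discovery rate. The aligner, the peak caller and the threshold were not given in the sources used here. Control reads and dm3 lists were not used here. The deposited signal is the narrowPeak signal column, of unstated scale, and served to rank and describe peaks within a list. Replicate and pooled signals are printed side by side without a comparison of their heights, since scale and depth are unknown. The deposited summit offset from the peak start gave each summit, in 1-based coordinates.

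TSSs came from all transcripts of 13945 protein-coding genes in Ensembl release 115 and DNA sequence from NCBI's dm6 genome. At equal distance, which occurred 1 time, the TSS that the summit lay upstream of was taken. Replicate lists used alone were cut to their strongest 2644 entries. A replicate summit within 200 bp counted as the same site. Intervals are 95% Wilson or Newcombe intervals, cover counting error only, and treat peaks, which are not replicates, as if independent. No test was made over regions. Beside a count of 0 stands the share of 3 counts or the Wilson bound.

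Members, 8 gene lists and 11 motifs were chosen with earlier results of these data known. Older gene symbols were matched through synonyms, and 2 names (Scmh1 and phl) were not matched. Named genes were the 15 strongest summits, the 3 nearest and 3 farthest, the 3 just beyond 500 bp, up to 3 per list, all in coding sequence and up to 3 with most summits; others complete a list or count and were chosen after their values were seen. The values of 1 list gene are not reported here. Placement, motif search and nearest-TSS assignment were tested on simulated data. Calculations used Python 3.11.15, numpy 2.4.6, pandas 2.3.3 and scipy 1.17.1.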

Additional observations from a re-analysis of the deposited data

How the results depend on the processing

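Among the 1322 strongest optimal peaks 14.9% of promoter summits off the TSS lay downstream, and 51.1% of those were also upstream of another TSS. With a window of 1000 bp the downstream share was 25.4%, the median offset 350 bp, the 5′ UTR share 47.1% and the log2 ratio of median signals to upstream summits -0.06. With a window of 250 bp the median offset was 73.0 bp and the 5′ UTR share 83.2%. With 1 TSS a gene, the most 5′, the downstream share was 21.9% and the median offset 128 bp. Adding TSSs of non-coding genes gave a 5′ UTR share of 57.8%. Requiring replicate summits within 100 or 50 bp, or offsets over 50 bp, gave 92.8%, 95.1% and 93.4% placed downstream by both. GAGAG was in 13.7% of windows of 50 bp on either side and 56.6% of 200 bp, and in 40.5% at summits upstream of no other TSS. With a single replicate's list the downstream share ran from 20.5% to 21.5% and the median offset from 110 to 129 bp. The share also upstream of another TSS ran from 33.9% to 39.0% and the 5′ UTR share from 69.1% to 71.2%. The log2 ratio ran from -0.21 to -0.11 and the GAGAG share from 30.0% to 31.4%. No alternative reversed the sign of the log2 ratio. Of 60 alternatives for the other 10 motifs, 22 moved the share beyond its interval and 38 did not. Chosen after seeing the data were 3 alternatives. Summits upstream of no other TSS gave a 5′ UTR share of 61.9% and a log2 ratio of -0.23, and peaks of full width a log2 ratio of -0.14. The cause of these shifts was not tested, beyond the changed windows and members themselves. No paired analysis was possible because the samples form 1 group. Depth is unknown, so no limit on weak or missed peaks can be given.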
